A study of Mus musculus with 6 samples.

Results

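Cytosolic nucleic acid sensors are proteins that bind RNA or DNA inside the cell and start an antiviral or inflammatory response. The set described here is 8 genes, Ddx58, Ifih1, Dhx58, Zbp1, Aim2, Ifi204, Ifi211 and Ifi213, taken by gene symbol from the array annotation, with the probe set of the highest mean kept for each gene. All 8 were on the array, each with 1 probe set, out of 19505 named genes and 22206 probe sets. The arrays measured microglia, macrophages that reside in the brain, from female C57BL/6 mice at the peak of experimental autoimmune encephalomyelitis (EAE), an inflammatory disease of the central nervous system used as a model of multiple sclerosis. Every mouse, control and knock-out, had been immunized under the skin with 100 µg recombinant MOG, a myelin protein, in the oil adjuvant IFA, and had received 300 ng pertussis toxin into a vein on that day and again 48 h later. The 3 control samples carry the label control with no further genotype, and the 3 CKO samples a B cell conditional knock-out, which the series title connects with GM-CSF-expressing B cells. The sources used here do not give the deleted allele, the Cre driver, the animals' age or the way the microglia were isolated. Nor do the labels say whether each sample is a separate animal, so the spread behind the p-values may be technical only.

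RIG-I (encoded by Ddx58) and MDA5 (Ifih1) are helicases that bind double-stranded RNA and signal through the mitochondrial adaptor MAVS. LGP2 (Dhx58) is their relative without the signalling domains and modulates them. AIM2 binds DNA and assembles an inflammasome with ASC and caspase-1, and ZBP1 binds nucleic acid in the Z conformation and recruits RIPK3 to trigger cell death. Ifi204, Ifi211 and Ifi213 belong with Aim2 to the mouse PYHIN family, a cluster of related genes whose proteins mostly join a pyrin domain to a DNA-binding HIN domain. Most of these sensor genes are themselves induced by interferon, through a promoter element called the ISRE.

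To show that element beside the values, the members' RefSeq promoter windows (GRCm38.p6, 250 bases before to 50 after the start) were searched on both strands for the core of that element, GAAANNGAAA. Windows were found for 5 members, and Dhx58, Zbp1 and Ifi204 had no entry. The core was in 4 of these 5 windows, against 3.44% of all 32851 windows in the table. The stretches around the matches are printed 5′ to 3′ on the gene's strand, with the core in capitals, to show how it sits in each gene, and the 250 bases before the start of Aim2 follow as the larger part of its window, in which no core was found.
Ifi213, chr1:173599291-173599390, minus strand: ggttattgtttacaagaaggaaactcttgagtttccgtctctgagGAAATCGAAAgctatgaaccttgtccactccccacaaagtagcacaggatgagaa
Ifi211, chr1:173913029-173913128, minus strand: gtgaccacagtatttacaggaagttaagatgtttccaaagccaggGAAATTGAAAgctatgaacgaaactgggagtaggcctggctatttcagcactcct
Ifih1, chr2:62646206-62646233, minus strand: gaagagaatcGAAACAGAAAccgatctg
Ddx58, chr4:40239804-40239833, minus strand: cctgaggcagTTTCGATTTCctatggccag
Aim2, chr1:173420354-173420603, plus strand: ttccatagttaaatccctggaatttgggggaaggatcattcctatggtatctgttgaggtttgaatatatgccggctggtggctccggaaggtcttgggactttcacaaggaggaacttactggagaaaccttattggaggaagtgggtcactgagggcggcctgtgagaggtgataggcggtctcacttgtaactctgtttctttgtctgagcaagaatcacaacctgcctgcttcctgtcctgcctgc
The core lay at positions -73 to -64 from the start in Ifi213 and -37 to -28 in Ifi211, and after the start, at 33 to 42 in Ifih1 and 3 to 12 in Ddx58. In Ddx58 the match is on the opposite strand, so the capitals show its reverse complement. The cores of Ifi211 and Ifi213 differed at 1 of 10 bases (T6C, Ifi211 first, counted from the 5′ end of the core), and the same 9 bases, gctatgaac, followed in both. The core of the interferon-gamma element GAS, TTCNNNGAA, was in none of the 5 windows and in 8.3% of all windows. These matches are letters in a fixed window and show nothing about binding in these cells.

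All 8 sensors had lower values in CKO microglia than in controls, with a median log2 difference (CKO minus control) of -2.09, against 0.06 over all 22206 probe sets. In each of the 8 genes the highest CKO array lay below the lowest control array. Over all probe sets 8.48% showed that arrangement. At an unadjusted p under 0.05, 7 of the 8 were lower, against 6.35% of all probe sets. None passed the limma test at an adjusted p of 0.05 over all probe sets, which called 0.00901% of them as lower. Ifi211 alone was under 0.1 (adjusted p = 0.0891), a level reached by 0.198% of probe sets, all lower. The genes were picked with earlier results of these arrays known, so the counts describe this set and do not test it. RNA of the whole isolate was measured, so fewer cells of a type and less RNA per cell cannot be told apart.

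**Figure D1:**
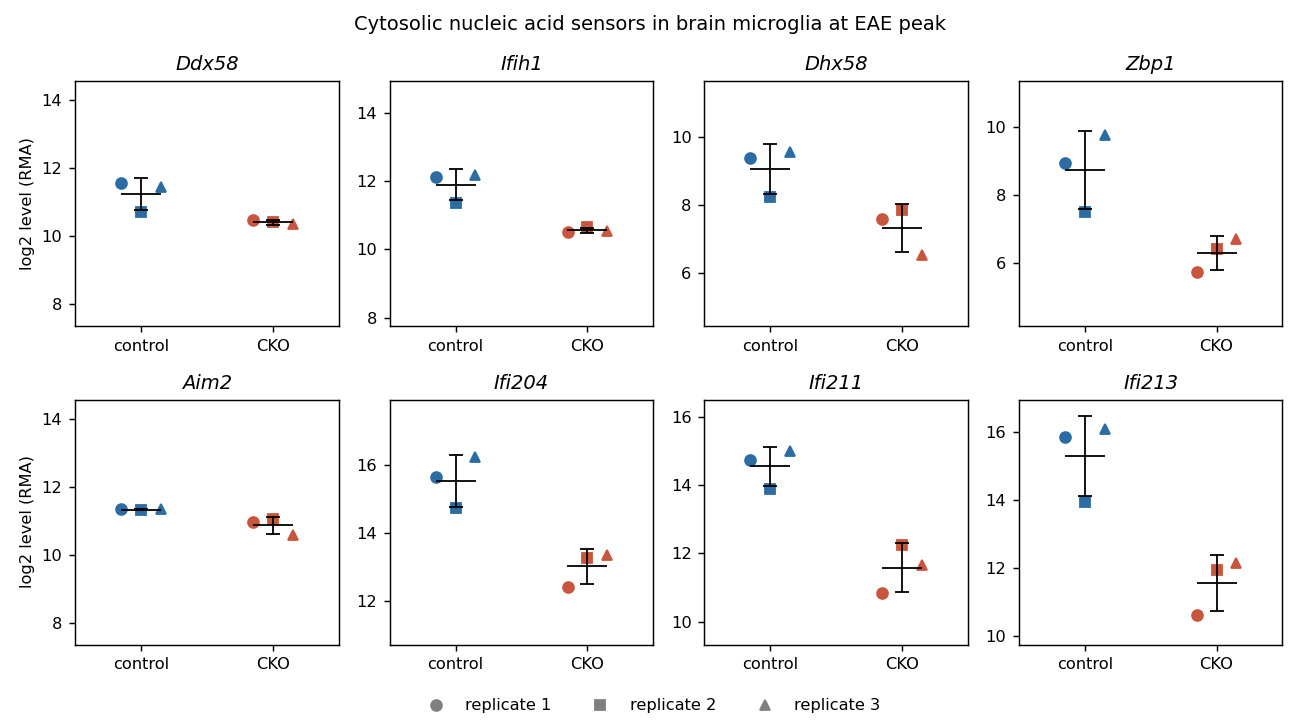
Log2 level of each sensor on the 3 control arrays (blue) and 3 CKO arrays (red), with the replicate number as the symbol, black dashes for group means and bars for 1 SD. Each panel spans the same number of log2 units; the groups are apart in all 8 panels, from a gap of 0.24 in Ddx58 to 1.81 in Ifi213.

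Among the RNA helicases, Ifih1, the MDA5 gene, had log2 levels of 12.13, 11.38 and 12.19 in control replicates 1 to 3 and of 10.51, 10.65 and 10.53 in the CKO replicates, in the same order (levels below follow this order). The CKO arrays were within 0.14 of each other, and control replicate 2 was the control nearest to them. The difference was -1.34 (95% interval -2.03 to -0.64, 2.53-fold lower, limma adjusted p = 0.176). Dhx58, the LGP2 gene, was at 9.38, 8.24 and 9.58 in controls and at 7.59, 7.87 and 6.53 in CKO. Both groups spread over 1.34 log2 units, and the gap between them was 0.37. Its difference was -1.74 (95% interval -2.81 to -0.66, 3.33-fold lower, limma adjusted p = 0.247). The Dhx58 value on CKO replicate 3 was below the median of all probe sets on that array (7.34), so the size of this difference is uncertain. With CKO replicate 3 left out, the difference was -1.34. Ddx58, the RIG-I gene, had the smallest difference of the helicases, -0.84 (95% interval -1.54 to -0.13, 1.79-fold lower, limma adjusted p = 0.424). It was at 11.56, 10.7 and 11.43 in controls and at 10.46, 10.39 and 10.33 in CKO, so that control replicate 2 lay 0.24 above the highest CKO array. The intervals of the 3 helicases overlapped, and differences between them were not tested.

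Zbp1, the sensor of Z-form nucleic acid, had control values of 8.93, 7.5 and 9.76 and CKO values of 5.74, 6.42 and 6.71. All 3 CKO values were below the median of all probe sets on their arrays, which lay between 7.18 and 7.34, so the CKO level and the size of the difference are uncertain. Control replicate 2 was again closest to the CKO arrays, 1.84 below the mean of the other two controls. The group difference was -2.44 (95% interval -3.71 to -1.18, 5.43-fold lower, limma adjusted p = 0.176).

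The PYHIN genes held both ends of the range. Ifi213 had the largest difference of the 8. Its log2 levels were 15.86, 13.96 and 16.1 in controls and 10.62, 11.95 and 12.15 in CKO. The difference was -3.73 (95% interval -5.16 to -2.31, 13.3-fold lower, limma adjusted p = 0.104), and 0.0721% of all probe sets were as low or lower in CKO. Ifi211 was at 14.74, 13.91 and 15.02 in controls and 10.83, 12.26 and 11.66 in CKO, a difference of -2.97 (95% interval -3.98 to -1.97, 7.85-fold lower). Ifi204, a relative of the human DNA sensor gene IFI16, was at 15.64, 14.73 and 16.23 in controls and at 12.43, 13.27 and 13.37 in CKO. Its difference was -2.51 (95% interval -3.51 to -1.51, 5.7-fold lower, limma adjusted p = 0.108). In all 3 genes control replicate 2 was the lowest control and CKO replicate 1 the lowest array of all.

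Aim2, the inflammasome sensor of DNA, was at 11.34, 11.31 and 11.36 in controls and at 10.98, 11.05 and 10.58 in CKO. The controls agreed within 0.05, the closest of any member. The difference was -0.47 (limma adjusted p = 0.576), and its 95% interval ran from -1.07 to 0.14, so it spans 0. This interval did not overlap those of Ifi204, Ifi211, Ifi213 and Zbp1; the difference between the genes was not tested. Of all probe sets, 15.2% were as low in CKO as Aim2 or lower.

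**Figure D2:**
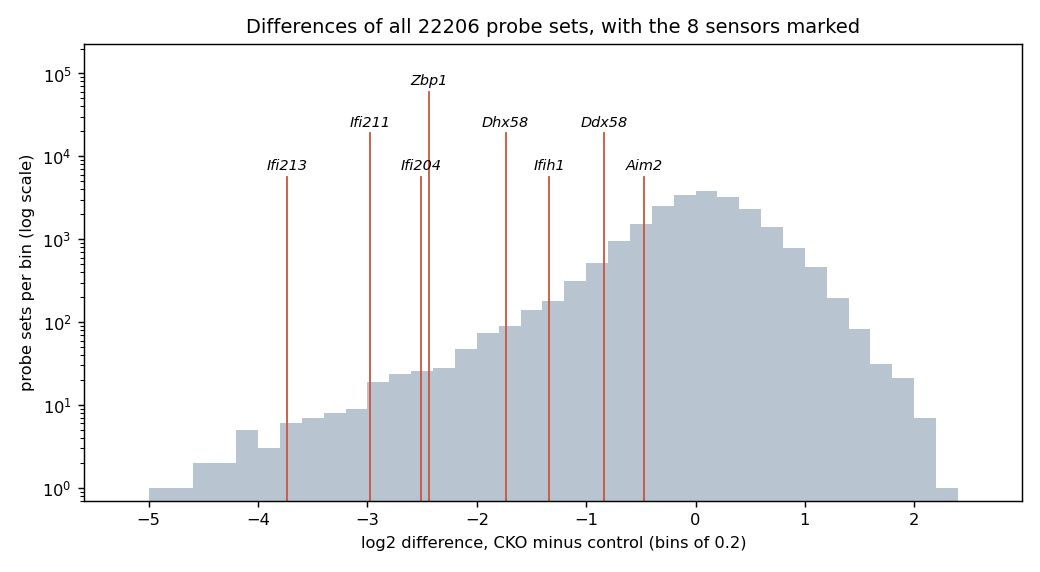
Number of probe sets (log axis) in bins of 0.2 of the log2 difference, CKO minus control, with red lines at the 8 sensors. Aim2 (-0.47) and Ddx58 (-0.84) lie in the well filled part of the distribution, and Ifi213 (-3.73) in its thin lower tail.

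The related PYHIN genes that are not among the 8 were lower too. Of 10 further genes of the cluster on the list, 5 were measured, and all 5 were lower at an unadjusted p under 0.05, with differences from -2.88 to -2.21 and no overlap of the groups. Ifi208 was at 12.04, 10.33 and 11.62 in controls and at 7.92, 8.63 and 8.8 in CKO (limma adjusted p = 0.103). Ifi207 differed by -2.62 and Ifi214 by -2.25 (limma adjusted p = 0.124 and 0.138). All 3 CKO values of Ifi214 (5.33, 5.71 and 5.96) were below their array medians, so its CKO level and the size of its difference are uncertain. Ifi209 and Mndal differed by -2.21 and -2.37. With the 3 members other than Aim2, this made 8 PYHIN genes with a median difference of -2.57. Genes of this cluster are close copies, so their probes can pick up each other's transcripts and single genes are uncertain. No member's values were identical to those of another probe set on all arrays. Shared signal need not give identical values, so that check cannot decide how much the probes share. Ifi202b, Ifi203, Ifi205, Ifi206 and Pydc5 were not analysed here.

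Genes that relay the RNA signal had a smaller median difference than all 8 sensors (-2.09) and than the 3 RNA helicases among them (-1.34). Of 16 measured adaptor, kinase and regulator genes, 15 were lower, 6 of them at an unadjusted p under 0.05. Over all probe sets 0 passed, and the median of the 16 was -0.66. Mavs, the adaptor itself, was at 11.6, 11.19 and 11.26 in controls and 11.19, 10.5 and 9.85 in CKO, with CKO replicate 1 at the level of control replicate 2. Its difference was -0.84 (95% interval -1.69 to 0.02), equal to that of the sensor gene Ddx58. Tbk1, the kinase downstream of MAVS and STING, differed by -0.15 (95% interval -0.77 to 0.47), and Irf3, the transcription factor it phosphorylates, by -0.75 (95% interval -1.68 to 0.18). The 3 genes of the list with the smallest p are known to be interferon-induced themselves. Irf7, the inducible relative of Irf3, differed by -3.38, Trim25, the ubiquitin ligase that acts on RIG-I, by -1.4, and Adar, an enzyme that edits double-stranded RNA, by -1.2 (limma adjusted p = 0.121, 0.177 and 0.228). The CKO level of Irf7, at 7.07, 5.63 and 6.22, was below the median of all probe sets on each array, so the size of its difference is uncertain.

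In the cGAS and STING branch, which senses DNA through a cyclic dinucleotide, 7 of 10 listed genes were measured. All 7 were lower, 2 at an unadjusted p under 0.05 and 0 over all probe sets, with a median of -0.52. Cgas, the enzyme that binds DNA, was at 9.33, 9.27 and 9.56 in controls and 9.32, 8.39 and 8.7 in CKO (difference -0.58, 95% interval -1.3 to 0.14). Sting1, the receptor of its product, was at 14.72, 13.83 and 14.5 in controls and 14.45, 13.86 and 14.27 in CKO. All CKO values lay inside the control range, and the difference was -0.16 (95% interval -0.91 to 0.6). Samhd1, which breaks down the building blocks of DNA, was the exception in size, at -1.87 (95% interval -2.75 to -0.99, limma adjusted p = 0.14). Rnaseh2a, a subunit of the enzyme that removes RNA from DNA hybrids, differed by -0.64, with all 3 CKO values below their array medians.

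Most of the partners through which AIM2 and ZBP1 act had lower values too. All 5 genes of the inflammasome list were lower, 3 at an unadjusted p under 0.05 and 0 over all probe sets, with a median of -0.82. Pycard, which encodes ASC, differed by -0.82 (95% interval -1.64 to 0.01) and Casp1 by -0.74 (95% interval -1.38 to -0.1). Gsdmd, the pore former cut by caspase-1, differed by -1.37, and Il1b by -2.67 with a CKO range from 9.19 on replicate 1 to 13.43 on replicate 2. All 5 measured partners of ZBP1 had a lower mean, as had 9881 of all 22206 probe sets. Of the 5, 2 were lower at an unadjusted p under 0.05 and 0 over all probe sets, with a median of -0.89. The groups were apart in 1 of them. Casp8 was nearly equal in both groups, at -0.03 (95% interval -0.65 to 0.59), and Fadd differed by -0.36 (95% interval -0.99 to 0.265). Mlkl, the executioner of necroptosis, was at 9.52, 9.16 and 9.55 in controls and 8.11, 8.6 and 8.32 in CKO (difference -1.07, limma adjusted p = 0.231). Ripk3, the kinase that ZBP1 recruits, differed by -1.06 (95% interval -2.13 to 0.02), with 8.4 on CKO replicate 1 inside the control range, and Casp6 differed by -0.89.

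**Figure D3:**
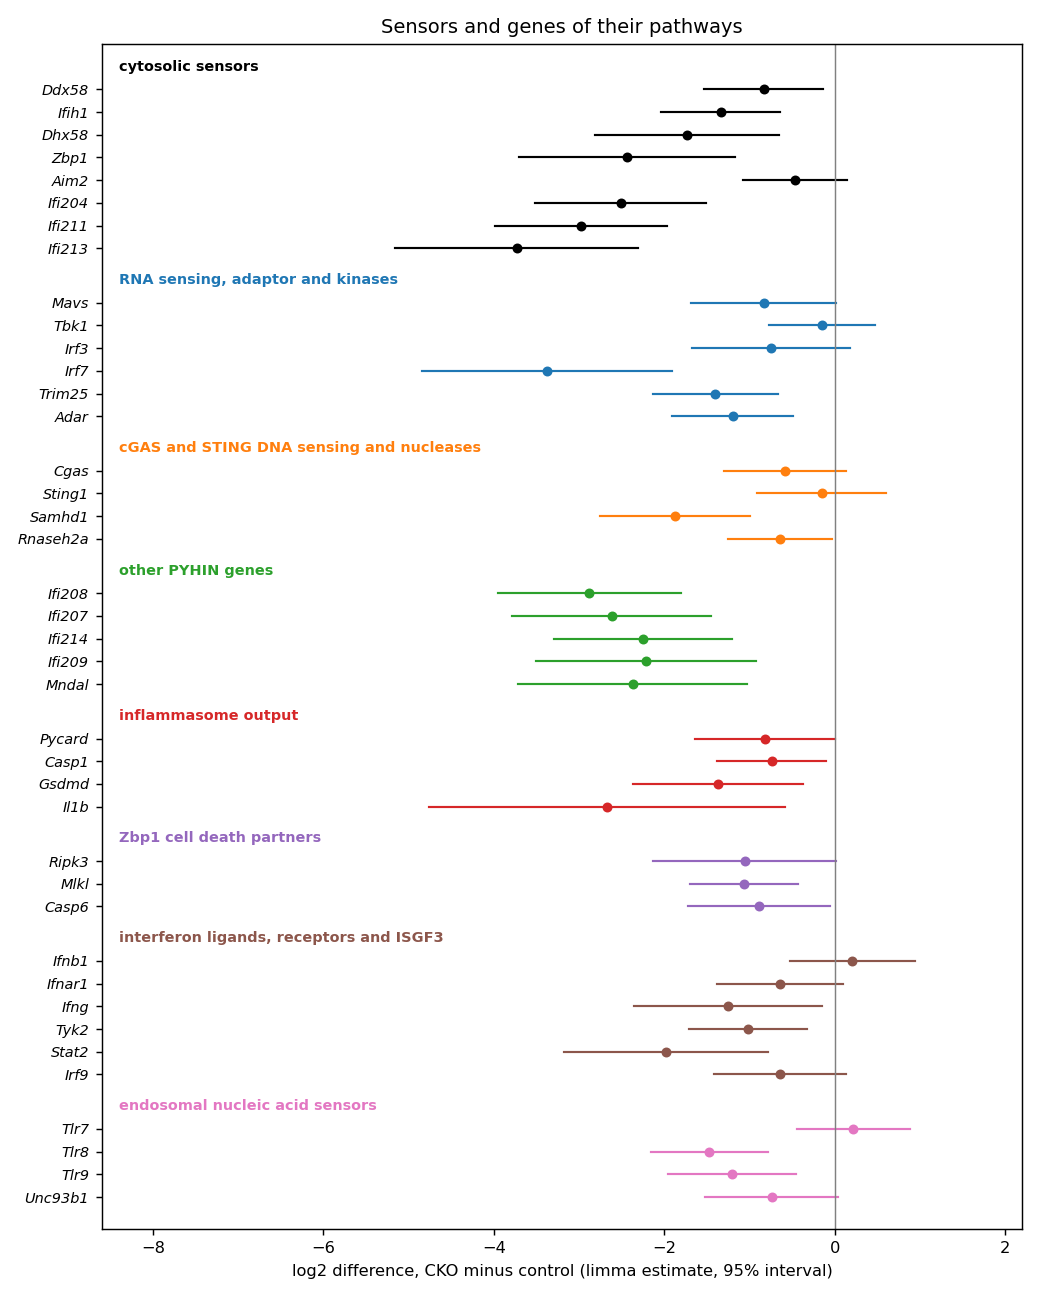
Log2 difference, CKO minus control, of the 8 sensors and of named genes of their pathways, as points with 95% intervals from the limma fit (n = 3 arrays a group). The sensors other than Aim2 and the other PYHIN genes lie left of 0 with their whole interval, while the intervals of Mavs, Tbk1, Irf3, Cgas, Sting1, Ifnb1 and Tlr7 include 0.

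Ifnb1, the interferon gene that the RNA and DNA sensors induce, was close to the bottom of the scale in both groups. It was at 4.87, 4.19 and 4.26 in controls and 4.44, 5.06 and 4.43 in CKO, where the lowest value of any array was 2.93. The groups overlapped, and the difference was 0.2 (95% interval -0.53 to 0.94). Of 15 measured ligand, receptor and signalling genes, 9 were lower and 6 higher, 5 lower and 0 higher at an unadjusted p under 0.05, and 0 passed over all probe sets. Stat2, part of the factor that binds the ISRE, was at 12.15, 11.09 and 13.4 in controls and 10.14, 10.17 and 10.39 in CKO (difference -1.98, limma adjusted p = 0.239). Its partner Irf9 differed by -0.64 and the receptor chain Ifnar1 by -0.64, and both 95% intervals included 0. Ifng, the cytokine of T and NK cells, differed by -1.26 and the receptor kinase Tyk2 by -1.02 (limma adjusted p = 0.45 and 0.31).

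The endosomal list holds receptors that see nucleic acid taken up from outside the cell, together with genes that act with them. It gave a mixed picture. Of 7 genes 6 were lower, 2 at an unadjusted p under 0.05 and 0 over all probe sets, with a median of -0.64. Tlr7, the receptor for single-stranded RNA, was at 18.75, 18.65 and 18.26 in controls and 19.0, 18.45 and 18.86 in CKO. These values lie near the top of the scale (19.93), where probes may be saturated, and the measured difference was 0.22 (95% interval -0.44 to 0.88). Tlr8 differed by -1.47 and Tlr9, the receptor for DNA, by -1.2 (limma adjusted p = 0.138 and 0.253). Unc93b1, which brings these receptors to the endosome, differed by -0.74. Whether the cytosolic sensors differed more than these lists was not tested.

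Across the arrays the 8 sensors shared an order in the controls. Control replicate 2 was the lowest control in 8 of 8 genes, and control replicate 3 the highest in 7 of 8. CKO replicate 1 was the lowest CKO array in 5 genes and CKO replicate 3 in the other 3. The mean deviation of the 8 genes from their own means was 1.24, 0.26 and 1.5 in the controls and -1.31, -0.72 and -0.97 in the CKO arrays. Control replicate 2 lay between the groups: nearer to the CKO mean for 3 genes, Ddx58, Dhx58 and Zbp1, and nearer to the mean of the other two controls for the remaining 5. The non-member genes with the nearest centred profile over the 6 arrays were Samhd1 (root mean square difference 0.13 log2 units), Serpinb6b (0.14), Irf1 (0.14), Epsti1 (0.15) and Ptpn22 (0.16). By the same measure the nearest gene was H4c11 for Ddx58 (0.07), Ms4a6b for Ifih1 (0.08), Trim14 for Dhx58 (0.18) and Grap2 for Zbp1 (0.15). It was Stx17 for Aim2 (0.04), Itga4 for Ifi204 (0.18), H2-K1 for Ifi211 (0.18) and Ccl5 for Ifi213 (0.32).

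Markers of several leukocytes were lower on the same arrays. All 8 T cell markers were lower in CKO, 7 at an unadjusted p under 0.05, with a mean log2 level of 8.12 to 10.04 on the control arrays and 6.27 to 6.78 on the CKO arrays. Their mean deviation was 2.01, 0.14 and 2.07 in controls and -1.7, -1.2 and -1.31 in CKO. Cd3e, which encodes the epsilon subunit of CD3, was at 12.55, 9.59 and 12.45 in controls and 6.48, 8.21 and 7.4 in CKO. The 8 NK cell markers (6 at an unadjusted p under 0.05) ran from 7.36 to 8.78 in controls and from 6.56 to 7.22 in CKO, and the 8 blood monocyte markers (6) from 13.49 to 14.23 and from 11.85 to 12.71; all 16 were lower. On each CKO array the mean level of the T cell and of the NK cell markers was below the median of all probe sets. The size of the differences of these 2 lists is therefore uncertain. Of the other leukocyte lists, 6 of 7 B cell, 7 of 7 dendritic cell, 5 of 6 neutrophil and 4 of 6 border macrophage markers were lower, with medians of -0.88, -0.69, -0.44 and -0.28. Interferon-induced sensors are expressed by these leukocytes as well as by microglia, and the part of such cells in the sensor values was not tested. Microglial identity was present on every array: the 9 measured microglial markers had mean levels of 15.96 to 16.47 in controls and 16.33 to 16.96 in CKO, with a median difference of 0.35. Of these 9, 3 had a lower mean in CKO; at an unadjusted p under 0.05, 2 were higher and 0 lower, and 0 passed over all probe sets. P2ry12 was between 18.76 and 19.72 on all arrays, near the top of the scale (19.93), where probes may be saturated. Tmem119, among the 3 with a lower mean in CKO, was at 14.03, 13.75 and 13.01 in controls. In CKO it was at 14.77, 12.41 and 12.29, a difference of -0.44 (95% interval -1.91 to 1.03).

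Astrocyte markers differed between arrays within both groups. Their mean deviation was highest on CKO replicate 1 (2.63) and control replicate 2 (1.18), the arrays with the lowest sensor values in their groups on average, and between -1.28 and -0.75 on the others. Oligodendrocyte and neuron markers were highest on the same 2 arrays (1.73 and 1.06, and 1.64 and 0.74), and endothelial markers deviated by at most 0.14. The part of these cells in the sensor values was not tested. CKO replicates 2 and 3 had a narrower interquartile range of values (3.08 and 3.11) than the other arrays (3.66 to 4.0). Among single arrays, only control replicate 2 and CKO replicate 1 gave sensors past the limma adjusted p of 0.05 when left out. For each of the other arrays 0 passed, and the lowest adjusted p of a sensor lay between 0.146 and 0.499. With control replicate 2 left out, 4 sensors passed the adjusted p of 0.05: Zbp1, Ifi204, Ifi211 and Ifi213, where 0.563% of all probe sets were called lower. That array was the lowest control in all 8 sensors, so leaving it out enlarges every difference by construction. With CKO replicate 1 left out, Ifih1, Zbp1, Ifi204, Ifi211 and Ifi213 passed, but 4.94% of all probe sets were then called lower and the arrays left in CKO are those with the narrow range. With both left out, an alternative chosen after seeing the data, 7 passed, all but Aim2, where 6.28% of probe sets were called lower. With arrays weighted by their quality in limma, 6 passed, all but Ddx58 and Aim2, where 4.76% of all probe sets were called lower. All 8 differences were negative in each of these settings, and Aim2 did not pass in any of them.

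**Figure D4:**
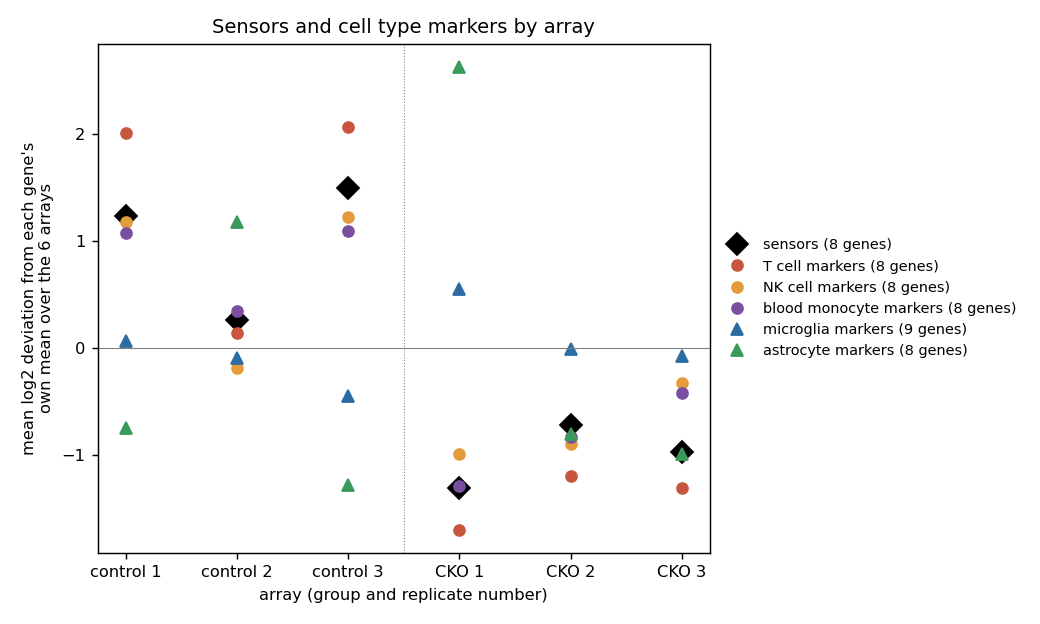
Mean log2 deviation of each gene list from its genes' own means, on the 3 control and 3 CKO arrays, for the 8 sensors (black diamonds), T cell, NK cell and blood monocyte markers (circles) and microglia and astrocyte markers (triangles). The sensors stand at 0.26 on control replicate 2 and at 1.24 and 1.5 on the other controls. T cell, NK cell and blood monocyte markers stand at 0.14, -0.19 and 0.35 on control replicate 2. On the other controls, T cell markers stand above the sensors (2.01 and 2.07). NK cell (1.18 and 1.23) and blood monocyte markers (1.08 and 1.1) stand below the sensors there. Astrocyte markers peak on CKO replicate 1 (2.63).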

How the data were processed

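Values were measured on Affymetrix whole-transcript arrays from RNA extracted with TRIzol, per the labels' protocols, 1 array for each of 3 control and 3 CKO samples. The deposited values are log2 levels per probe set, made by the authors with RMA, per the submitters' processing notes; their range showed the log2 scale, and the sources used here do not give the RMA version, settings or annotation release. Of 22206 probe sets, 19572 named 1 gene symbol, 0 several, and 2634 none. All 19572 matched the mouse gene table (GRCm38.p6) by Entrez number. For 55 genes with several probe sets, the one with the highest mean was kept.

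The fit was limma 3.58.1 in R 4.3.3 (lmFit, eBayes, no covariate, two-sided), with Benjamini-Hochberg adjustment over all probe sets; it was tested on simulated data. SD are over 3 arrays a group, whose number limits the precision. Intervals come from the limma fit, whose eBayes step draws each probe set's variance toward a value shared by all probe sets. A fold is 2 raised to the log2 difference. The smallest p of an exact permutation test of 3 against 3 is 0.1, so none was run. The members and lists were chosen with earlier results of these data known. Of 71 listed pathway genes 60 were measured. Named were all members, 15 central pathway genes and up to 3 genes per pathway list with the smallest p. Also named were markers among the 2 of a list with the highest mean. The 5 genes nearest to the members' mean profile and the nearest gene of each member were named too. Ifi209 and Mndal were added after their values were seen, to complete a list of 5. Casp8, Fadd and Tmem119 were also added after their values were seen. Alternatives were 3 normalizations, filters on dim probe sets, another variance model, array weights, a replicate block, probe set means, a looser threshold and each array left out. Protein sequences were not used here.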

Additional observations from a re-analysis of the deposited data

How the results depend on the processing

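All 8 members were lower in CKO in each of the 17 alternatives, and their median log2 difference ranged from -2.53 to -1.7. Each change from the main value of -2.09 was smaller than the members' median SD within groups (0.649). The number of members past the adjusted p of 0.05, 0 as reported, was 1 at a threshold of 0.1 and 6 with array weights. It was 7 without control replicate 2 and CKO replicate 1 together (chosen after seeing the data). When one array was left out, it was 4 for control replicate 2, 5 for CKO replicate 1 and 0 for each of the others. For the pathway lists, 0 as reported, the number was 20 of 60 with array weights, 20 without that pair, and between 0 and 14 with one array left out, the 14 without CKO replicate 1. Of all probe sets, 7.63%, 11.3% and 9.95% passed in either direction with array weights, without the pair and without CKO replicate 1. Quantile normalization, median centring, cyclic loess, both filters on dim probe sets, the trended robust fit and probe set means each left 0 members past the threshold. At an unadjusted limma p under 0.05, 6 members rather than 7 were lower with quantile normalization and with cyclic loess. The number was also 6 without control replicate 1 or 3, and without CKO replicate 2 or 3. It stayed at 7 in the other settings. Median centring moved the median difference of all probe sets from 0.06 to -0.06. With the replicate block 0 members passed. Equal replicate numbers correlated at -0.005, -0.23 and 0.25 in their deviations from the group means. With 3 arrays a group such deviations depend on each other, and the labels state no pairing. Whether the numbers pair the samples therefore cannot be told. With 3 arrays a group, low values, such as Ifnb1 in both groups and Zbp1, Irf7 and Ifi214 in CKO, which lay below the array medians, are limited by signal over background.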
